A study of Mus musculus with 9 samples.

Results

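The genes described here are 10 genes of MHC class I antigen presentation, chosen by name: the heavy chains H2-K1, H2-D1, H2-Q5 and H2-T23, the light chain B2m, the peptide transporter genes Tap1 and Tap2, the immunoproteasome genes Psmb8 and Psmb9, and Nlrc5. Of these, 8 had a row among the 22851 genes of the heart RNA-seq matrix, and H2-T23 and B2m were not analysed here. There were 9 libraries from the myocardium of male C57BL/6 mice that were 6 to 8 weeks old at the start, with 3 libraries in each of 3 groups. CK mice were normal controls that received citrate buffer. DCM mice received a single injection of streptozotocin at 180 mg/kg, which kills pancreatic beta cells and gives a model of type 1 diabetes, and were kept for 12 weeks. SPM mice received the same streptozotocin and also spermine, a natural polyamine, at 1 mg/kg. Dosing with spermine began 2 weeks ahead of the diabetes and went on, less often, to the end of the 12 weeks.

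MHC class I molecules carry short peptides made inside a cell to its surface, where cytotoxic T cells read them. The peptides come from the proteasome, enter the endoplasmic reticulum through the transporter formed by TAP1 and TAP2, and are loaded onto a heavy chain paired with beta-2-microglobulin. Interferons raise the whole set, through IRF1 and through NLRC5, the transactivator that acts on class I promoters. In the heart, endothelial cells and resident or infiltrating leukocytes are known for far higher class I levels than cardiomyocytes.

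Of the 8 measured genes, 7 lie in the MHC region of chromosome 17 (GRCm38 annotation by Ensembl identifier). H2-K1 (ENSMUSG00000061232) spans chr17:33996017-34000347 and H2-D1 (ENSMUSG00000073411) chr17:35262730-35267499, while H2-Q5 (ENSMUSG00000055413), at chr17:35394126-35397800, is annotated as a polymorphic pseudogene. Tap1 (ENSMUSG00000037321, chr17:34187553-34197225), Psmb8 (ENSMUSG00000024338, chr17:34197721-34201454) and Tap2 (ENSMUSG00000024339, chr17:34203527-34216321) follow each other on the forward strand. Psmb9 (ENSMUSG00000096727, chr17:34181987-34187764) is on the reverse strand and its annotated 5′ end overlaps that of Tap1. Nlrc5 (ENSMUSG00000074151, chr8:94434356-94527272) lies on another chromosome.

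Because the class I promoters share control elements, the 250 bases before the start site are shown for the heavy chains that dominate the level, for Tap1, and for Psmb8, whose pattern over the groups differed from the others. RefSeq windows (GRCm38.p6) were matched for 7 of the 10 genes, and not for H2-Q5, Tap2 and Nlrc5. The start sites are those of RefSeq. That of H2-K1 is the same as the Ensembl 5′ end, while those of H2-D1, Tap1, Psmb8 and Psmb9 differ from the Ensembl ones. The H2-D1, Psmb8 and Psmb9 windows lie inside the Ensembl spans given above, so sequence before those annotated 5′ ends was not searched. Capitals mark matches, on either strand, to TGACG (as in the X2 box of class I promoters), CCAAT (the Y box core), GGGNNTTCC (an NF-kappaB-type site), the core of the interferon-stimulated response element and TTCNNNGAA (a gamma-activated site).
H2-K1 (chr17:34000348-34000597, reverse strand): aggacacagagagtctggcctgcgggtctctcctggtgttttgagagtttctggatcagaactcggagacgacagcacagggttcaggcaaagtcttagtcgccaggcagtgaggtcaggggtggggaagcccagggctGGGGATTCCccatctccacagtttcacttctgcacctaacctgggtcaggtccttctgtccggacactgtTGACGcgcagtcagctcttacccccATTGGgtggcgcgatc
H2-D1 (chr17:35262844-35263093, forward strand): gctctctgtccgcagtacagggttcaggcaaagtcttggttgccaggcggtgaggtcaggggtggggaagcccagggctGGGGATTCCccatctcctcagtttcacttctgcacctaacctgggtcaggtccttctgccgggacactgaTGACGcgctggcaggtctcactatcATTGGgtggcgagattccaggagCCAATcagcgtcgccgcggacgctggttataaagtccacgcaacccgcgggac
Tap1 (chr17:34187306-34187555, forward strand): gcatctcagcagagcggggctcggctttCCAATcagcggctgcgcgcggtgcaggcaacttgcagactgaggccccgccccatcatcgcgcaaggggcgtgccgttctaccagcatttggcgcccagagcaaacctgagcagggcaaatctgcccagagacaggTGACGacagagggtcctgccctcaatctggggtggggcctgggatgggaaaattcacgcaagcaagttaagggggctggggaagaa
Psmb8 (chr17:34197945-34198194, forward strand): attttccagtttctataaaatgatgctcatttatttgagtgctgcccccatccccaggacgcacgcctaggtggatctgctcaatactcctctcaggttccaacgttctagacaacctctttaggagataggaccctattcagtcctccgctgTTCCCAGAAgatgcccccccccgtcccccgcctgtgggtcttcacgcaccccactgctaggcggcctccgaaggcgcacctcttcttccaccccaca

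The H2-K1 and H2-D1 windows were 87.4% identical over 190 aligned bases. TGACG lay at bases -41 to -37 from the H2-K1 start site and at -101 to -97 from the H2-D1 start site, each followed by an inverted CCAAT, at -16 to -12 and at -76 to -72. GGGNNTTCC matched in both, against 4.88% of the 27025 windows of all genes. TGACG and CCAAT together were found in 5 of the 7 windows (B2m, H2-D1, H2-K1, Psmb9 and Tap1), against 6.39% of all windows. H2-K1 and H2-D1 are so alike in sequence that they are not independent observations. In Tap1 the CCAAT, at -222 to -218, came before the TGACG, at -86 to -82, and lay farther from it than in H2-K1 and H2-D1. The RefSeq start sites of Tap1 and Psmb9 lie 226 bases apart and point away from each other, so their windows share 225 bases and are 1 observation, not 2. The Ensembl spans of this pair, given above, overlap instead. The core of the interferon-stimulated response element, held by 3.04% of all windows, matched in B2m and H2-T23. In the Psmb8 window the only match was TTCNNNGAA, at bases -97 to -89, which 7.18% of all windows hold. A match is a string of letters and not a site shown to be bound, and its absence says only that these letters are not in this window.

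Total counts were 29901300 to 39718680 per library, and the share of mitochondrial genes was 13.7% to 16.2% for CK, 15.5% to 18.9% for DCM, and 21.0% to 21.1% for all SPM libraries. SPM replicate 2 stood apart from the other libraries. Of the 8343 genes with at least 10 CPM in the SPM group, 72.2% had a value in SPM replicate 2 that lay between those of SPM replicates 1 and 3, whereas this share was 13.0% to 42.3% for the other 8 libraries. Of the 2656 genes without a count in SPM replicates 1 and 3, only 30 had a count in SPM replicate 2, against 485 to 1162 genes for the other libraries. Whether this library is a separate sample was not tested, and the values and calls on SPM that the text turns on are also given without it. The protocol in the labels speaks of retinas, but the tissue label is heart: Myh6, Myl2 and Tnnt2, the highest of the 6 measured cardiomyocyte markers, stood at 4843 to 25864 normalized CPM, and the 6 measured retina markers, Sag and Gnat1 among them, were under 1 in each library.

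Compared per length, the 2 classical heavy chains stood far above the rest. In CK, the deposited FPKM was 346.3 ± 83.0 for H2-D1 and 302.0 ± 79.2 for H2-K1 (SD, n = 3). H2-Q5 (12.7 ± 3.45), Tap1 (12.2 ± 5.36), Tap2 (10.9 ± 1.57) and Psmb9 (8.17 ± 2.15) came next, followed by Psmb8 (4.98 ± 1.07) and Nlrc5 (2.21 ± 0.665). In this order the CK ranges of H2-D1 and H2-K1 overlapped, as did those of H2-Q5 and Tap1, of Tap1 and Tap2 and of Tap2 and Psmb9. H2-K1 and H2-Q5, Psmb9 and Psmb8, and Psmb8 and Nlrc5 did not overlap. H2-D1 was above H2-K1 in all 9 libraries, whereas Tap1 was above Tap2 in 4 of 9. The order was the same when the mean was taken over all 9 libraries.

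Part of some genes cannot be told from their relatives by short reads. For H2-Q5, 36.4% of the 50-base windows of its transcripts occurred in another gene, 25.5% in H2-Q7 alone, and 14.0% of the 100-base windows did. The share for 50 bases was 12.8% in H2-D1, 11.9% in Psmb8 (11.6% with the read-through gene Gm20496), 11.6% in Tap2 and 9.6% in H2-K1, and at most 4.2% in Psmb9, Tap1 and Nlrc5. The treatment of reads with several matches was not stated, so H2-Q5 in particular is uncertain as a separate gene. In the Ensembl annotation Tap1 and Psmb9 overlap on opposite strands, and the use of strand in the counting was not stated.

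The first comparison asked how the class I genes differed between diabetic and normal hearts. H2-Q5, Psmb8 and Nlrc5 were downregulated in DCM compared to CK, by 0.67, 0.69 and 0.65 on the log2 scale, and the fitted difference of all 8 genes was below 0, as it was for 50.4% of all genes tested. A gene was called changed at an adjusted p under 0.05 in the quasi-likelihood test of edgeR (adjusted by Benjamini-Hochberg over all genes tested) and a fold change of at least 1.5. With these limits 3 of the 8 genes were lower and 0 were higher, where 2.31% of the 14402 genes tested were called lower and 2.03% higher. DESeq2 called the same 3. All 8 genes were lower at an unadjusted p under 0.05 in edgeR. The share of all genes at this unadjusted limit is not given, here or below, so such counts cannot be set against it. The median log2 difference was -0.55 over the 8 genes and 0.0 over all genes. In bulk tissue, fewer cells of a type and less RNA per cell cannot be told apart.

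H2-K1, a classical heavy chain that presents peptide to cytotoxic T cells, had 702.4, 450.0 and 472.4 normalized CPM in CK replicates 1 to 3, and 433.1, 364.7 and 387.8 in DCM. The groups did not overlap, but the log2 difference of -0.46 (SE 0.14) had an adjusted p of 0.0623 in the same test. H2-D1, the other classical heavy chain, stood at 884.8, 609.5 and 594.9 in CK and at 606.9, 542.4 and 541.0 in DCM. The highest DCM library lay above the lowest CK library, and the difference was -0.31 (SE 0.13, adjusted p = 0.169). H2-Q5, a gene of the non-classical Q region, had 18.3, 12.3 and 11.5 in CK and 9.99, 7.86 and 8.66 in DCM. Each DCM library lay below each CK library (log2 difference -0.67, SE 0.17, adjusted p = 0.0294).

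Tap1 and Tap2 encode the pair of subunits that form the peptide transporter. Tap1 stood at 67.9, 38.2 and 30.5 normalized CPM in CK and at 32.6, 23.6 and 27.6 in DCM. CK replicate 1 was far above the other CK libraries and the groups overlapped, so that the largest difference of the 8 genes, -0.70 (SE 0.23), had an adjusted p of 0.0728. Tap2 varied less, with 41.5, 33.7 and 32.3 in CK and 30.6, 29.4 and 31.3 in DCM. These groups did not overlap, and the difference was -0.24 (SE 0.10, adjusted p = 0.162).

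Psmb8 and Psmb9 encode catalytic subunits that take the place of the standard subunits PSMB5 and PSMB6 in the immunoproteasome. Psmb8 had 11.3, 8.21 and 7.79 normalized CPM in CK and 6.03, 5.25 and 5.57 in DCM. The groups were separate, with a log2 difference of -0.69 (SE 0.17, adjusted p = 0.0200). Psmb9 had 29.1, 20.3 and 18.2 in CK and 18.9, 14.5 and 16.0 in DCM, with DCM replicate 1 above CK replicate 3 (-0.45, SE 0.16, adjusted p = 0.101). Nlrc5 stood at 21.5, 13.5 and 13.1 in CK and at 11.3, 8.51 and 10.8 in DCM, again without overlap (-0.65, SE 0.18, adjusted p = 0.0425).

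In all, 5 of the 8 genes had each DCM library below each CK library, against 14.6% of all genes tested. CK replicate 1 held the highest value of the 9 libraries for all 8 genes, and DCM replicate 2 the lowest for 7 of them. Without CK replicate 1 none of the 8 genes was called by edgeR, with 5 lower at an unadjusted p under 0.05, and the differences of H2-Q5, Psmb8 and Nlrc5 became -0.43, -0.51 and -0.38 (adjusted p = 0.078, 0.0631 and 0.114). None was called without DCM replicate 2 or without DCM replicate 3 either (5 and 7 lower at an unadjusted p under 0.05), while 4 were called without CK replicate 3, Tap1 among them. The fitted difference of each of the 8 genes stayed below 0 whichever library was left out.

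**Figure D1:**
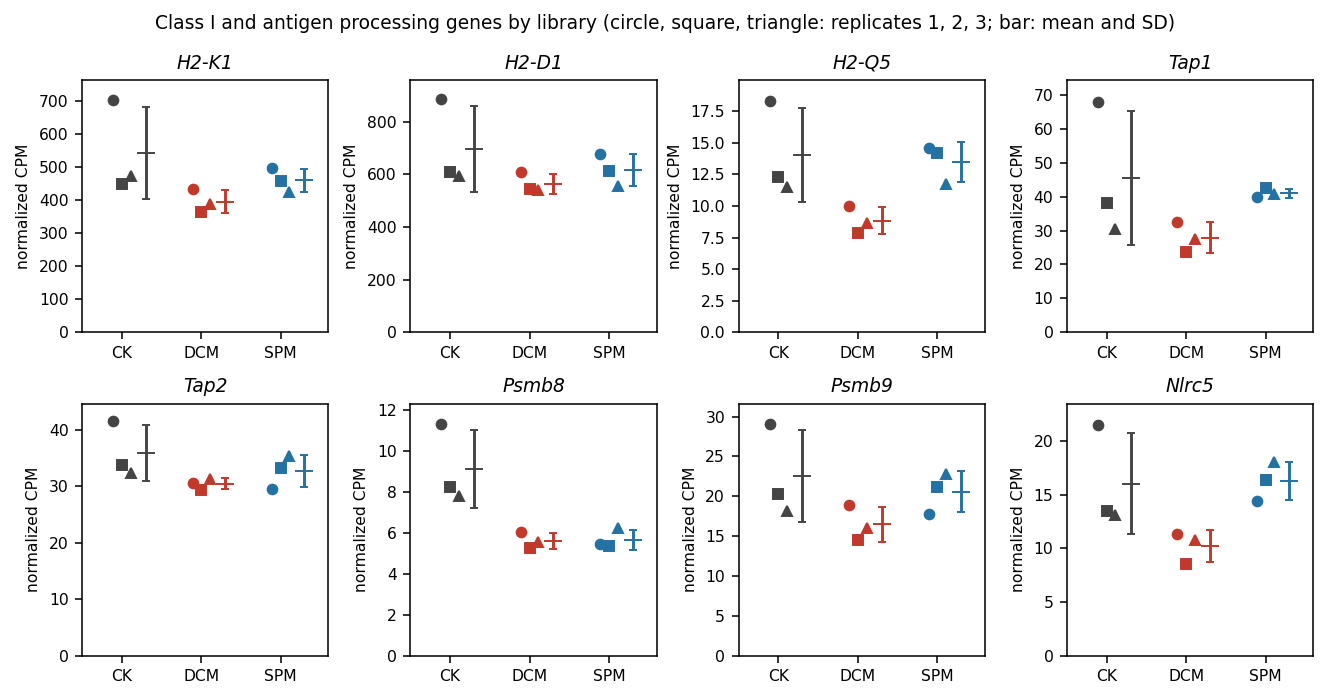
Normalized CPM of the 8 measured genes by group, with 1 symbol for each library and a bar for the mean and SD of 3 libraries. CK replicate 1 was the highest library for each gene, Psmb8 stayed at 5.33 to 6.21 in SPM, and Nlrc5 stood at 14.4 to 18.0 in SPM against 8.51 to 11.3 in DCM.

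The second comparison asked how the genes differed between spermine-treated and untreated diabetic hearts. H2-Q5 and Nlrc5 were upregulated in SPM compared to DCM, by 1.53-fold and 1.60-fold. Tap1 was 1.47-fold higher at an adjusted p of 0.0128, just under the fold limit, and 1.45-fold higher without SPM replicate 2 (adjusted p = 0.0573). Psmb8 had a log2 difference of 0.02 with a 95% interval of -0.29 to 0.32, an interval that leaves out a change of 1.5-fold in either direction. Thus 2 of the 8 genes were called higher and 0 lower, where 2.7% of the 14493 genes tested were called higher and 0.89% lower, and the median log2 difference was 0.27 over the 8 genes and 0.01 over all genes. DESeq2 called the same 2 genes, and 5 were higher and 0 lower at an unadjusted p under 0.05 in edgeR. The comparison uses the same 3 DCM libraries as the first, so a low value in them enters both.

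H2-K1 had 496.1, 458.4 and 425.9 normalized CPM in SPM replicates 1 to 3, and its lowest SPM library lay just below its highest DCM library (log2 difference 0.23, SE 0.09, adjusted p = 0.0925). H2-D1 had 677.5, 613.9 and 554.5, overlapping DCM (0.13, SE 0.09, adjusted p = 0.311). H2-Q5 stood at 14.6, 14.2 and 11.7, and each value was above the 3 DCM values (0.61, SE 0.13, adjusted p = 0.0158). Among these 3 heavy chains the upward difference that passed both limits was thus that of the Q-region gene, which is expressed at a small fraction of the classical ones and shares much of its sequence with H2-Q7.

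Tap1 was even across the SPM libraries, with 39.9, 42.4 and 40.7 normalized CPM, all above DCM (0.56, SE 0.10). Tap2 had 29.6, 33.3 and 35.3, with SPM replicate 1 below 2 of the DCM libraries (0.11, SE 0.08, adjusted p = 0.346). Psmb9 had 17.8, 21.2 and 22.8, which overlapped DCM in 1 library (0.32, SE 0.12, adjusted p = 0.0868). Psmb8 had 5.44, 5.33 and 6.21, inside and around the DCM range (adjusted p = 0.949). Nlrc5 had 14.4, 16.4 and 18.0, all above the highest DCM library (0.68, SE 0.13, adjusted p = 0.0130).

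H2-Q5, Tap1 and Nlrc5 had each SPM library above each DCM library, which held for 19.1% of all genes tested. Without SPM replicate 2 none of the 8 genes was called by edgeR, with 3 higher at an unadjusted p under 0.05. The difference of H2-Q5 was then 0.58 (adjusted p = 0.0784) and that of Nlrc5 0.67 (adjusted p = 0.0566), and over all genes 56 were called in place of 521. None was called without DCM replicate 2 either, again with 3 at an unadjusted p under 0.05, Nlrc5 alone was called without SPM replicate 1, and 3 genes, with Tap1, were called without DCM replicate 1.

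Between SPM and CK the question was which genes stayed apart from normal hearts. Psmb8 was lower in SPM, by 0.68 on the log2 scale (SE 0.16, adjusted p = 0.0163), and its groups did not overlap, as for 23.4% of all genes in that direction. The 7 other genes had log2 differences from -0.23 for H2-K1 to 0.02 for Nlrc5, and edgeR and DESeq2 called none of them, nor did any have an unadjusted p under 0.05. Without CK replicate 1, edgeR called 0 of the 8 genes, with 2 higher and 1 lower at an unadjusted p under 0.05. The 95% interval of the Nlrc5 difference ran from -0.39 to 0.44 and that of Tap1 from -0.70 to 0.40, so for Tap1 a change of 1.5-fold downwards lay inside it. Thus 1 of the 8 genes was called lower and 0 higher, where 4.12% of the 14574 genes tested were called lower and 5.08% higher, and 7 of the 8 had a fitted difference below 0, against 49.8% of all genes. Psmb8 was not called without CK replicate 1 (-0.51, adjusted p = 0.0333, fold under 1.5), without SPM replicate 2 (-0.64, adjusted p = 0.0748), or with a correction for the GC content of genes (-0.57, adjusted p = 0.0250, fold under 1.5).

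**Figure D2:**
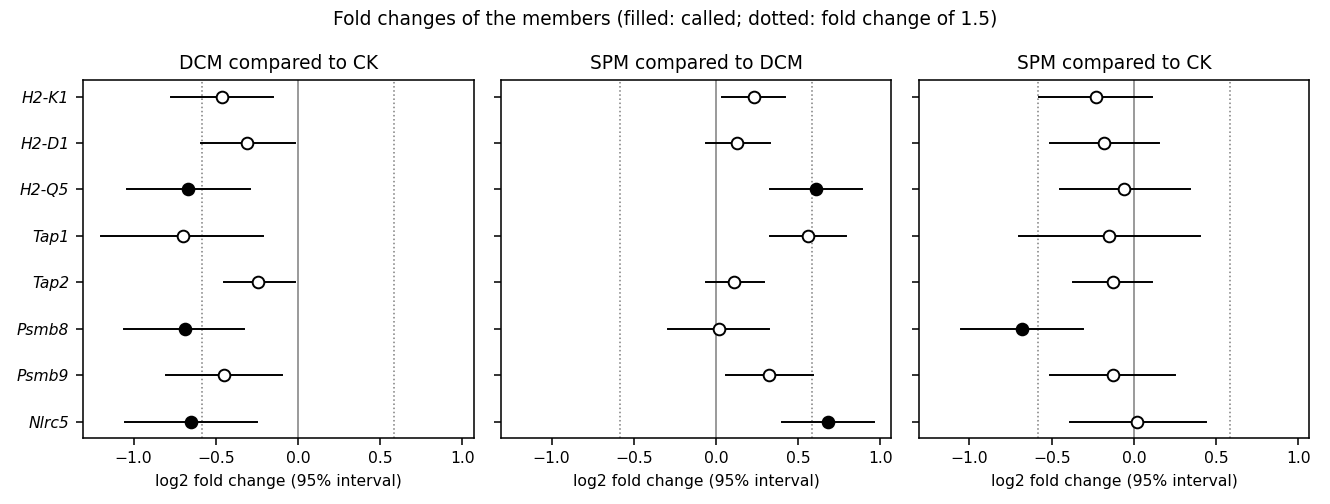
Log2 fold change of the 8 genes in the 3 comparisons from edgeR, with 95% intervals as lines, filled circles for called genes and dotted lines at a fold change of 1.5. All 8 estimates lay below 0 in DCM compared to CK and above 0 in SPM compared to DCM, where that of Psmb8 was 0.02.

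The immunoproteasome genes were also set against the standard subunits they replace, as a ratio of FPKM within each library. Psmb5, Psmb6 and Psmb7, which encode the standard catalytic subunits, were called in none of the 3 comparisons, with log2 differences between -0.33 (Psmb5 in SPM compared to CK, adjusted p = 0.00889, fold under 1.5) and 0.02. Without SPM replicate 2 the Psmb5 difference from CK was again -0.33, with an adjusted p of 0.0536 in edgeR. Psmb8/Psmb5 was 0.0936, 0.068 and 0.0639 in CK, 0.0538, 0.0429 and 0.053 in DCM, and 0.0611, 0.0549 and 0.0606 in SPM. The 3 groups did not overlap. The mean log2 ratio was -0.58 in DCM relative to CK, 0.25 in SPM relative to DCM and -0.33 in SPM relative to CK, each with p = 0.1 in a two-sided exact permutation test, the smallest that 3 against 3 libraries can give (0.15 after adjustment over 6 tests). Without SPM replicate 2 the log2 differences were 0.29 from DCM and -0.28 from CK. Psmb5 itself had, in SPM compared to DCM, a log2 difference of -0.23 (adjusted p = 0.0763), while that of Psmb8 was 0.02.

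Psmb9/Psmb6 was 0.0707, 0.0512 and 0.043 in CK, 0.0439, 0.0334 and 0.0418 in DCM, and 0.0467, 0.0573 and 0.0633 in SPM. CK replicate 3 lay inside the DCM range, and the SPM values lay above it. The log2 differences were -0.45 (exact permutation p = 0.2), 0.49 (exact permutation p = 0.1) and 0.04 (exact permutation p = 0.9) in the same order, with adjusted values of 0.24, 0.15 and 0.9. Without SPM replicate 2 the differences of SPM were 0.46 from DCM and 0.02 from CK.

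Psmb8 was the gene of the 8 whose profile over the libraries lay farthest from their mean (root mean square difference 0.204 on the log2 scale). Nlrc5 (0.16), Tap1 (0.159) and Tap2 (0.154) came next, and H2-K1 (0.083) and Psmb9 (0.085) lay nearest. The ratios of other genes to Psmb8 were chosen after the values were seen and are given as a description. Nlrc5/Psmb8, by FPKM, was 0.414 to 0.48 in CK, 0.408 to 0.487 in DCM, and then 0.667 to 0.775 in SPM. Tap1/Psmb8 was 1.91 to 2.94 in CK, 2.19 to 2.64 in DCM, and then 3.19 to 3.88 in SPM. Psmb9/Psmb8 was 1.55 to 1.71 in CK, 1.83 to 2.08 in DCM, and then 2.16 to 2.63 in SPM. Each of these ratios was higher in the 3 SPM libraries than in the 6 others. SPM replicate 2 held the highest value of each, and without it the SPM ranges were 0.667 to 0.73, 3.19 to 3.58 and 2.16 to 2.43.

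**Figure D3:**
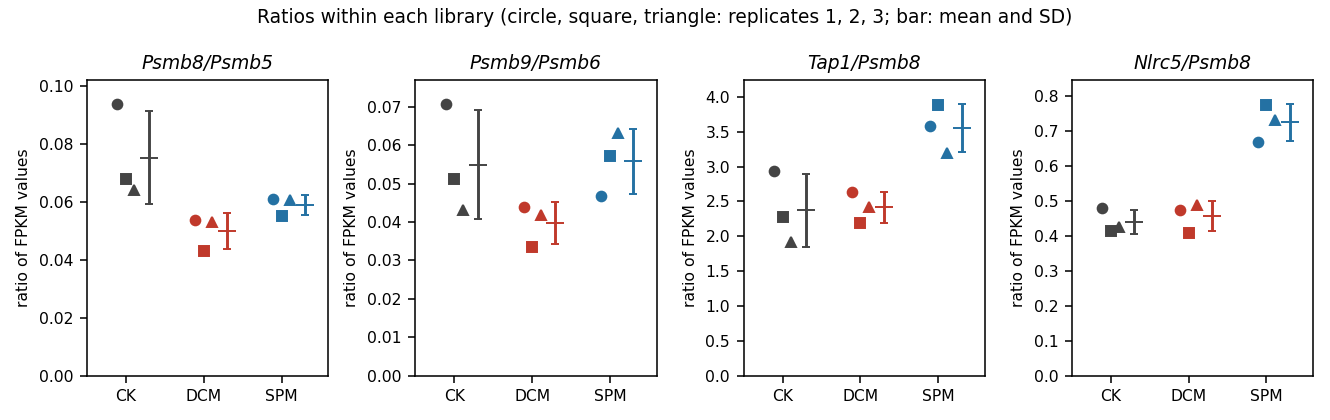
Ratio of FPKM values within each library, for the immunoproteasome genes over the standard subunits and for Tap1 and Nlrc5 over Psmb8, with 1 symbol for each library and bars for the mean and SD of 3 libraries. Psmb8/Psmb5 was lowest in DCM, and Nlrc5/Psmb8 was 0.667 or more in SPM and 0.487 or less elsewhere.

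The other genes of the pathway were read from a list of 44, of which 36 had a row and 31 were tested. In DCM compared to CK, 2 of them were downregulated and 0 upregulated, by DESeq2 as by edgeR. In edgeR, 11 were lower and 2 higher at an unadjusted p under 0.05. Over all genes tested, edgeR called 2.31% lower and 2.03% higher. Irf9, part of the interferon-stimulated factor ISGF3, was downregulated by 0.77 (SE 0.09, adjusted p = 0.000308). The fitted difference was below 0 for 24 of the 31, with a median of -0.18, where 50.4% of all genes were below 0. Irf9 had 52.0, 43.9 and 42.9 normalized CPM in CK and 28.7, 25.2 and 27.5 in DCM. The groups were separate. Ifng, the gene of interferon gamma itself, was not tested, with 0.0279 normalized CPM in CK replicate 2 and no count in the other 8 libraries.

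In SPM, Irf9 stood at 35.8, 34.6 and 35.5, between the other groups. Its difference from DCM was 0.39 (SE 0.07, adjusted p = 0.0131), under 1.5-fold, and 0.40 without SPM replicate 2 (adjusted p = 0.0661). Of the 31 genes, 24 had a fitted difference above 0 in SPM compared to DCM, with a median of 0.21, where 49.3% of all genes were below 0. In each role the gene with the highest mean FPKM in CK stayed uncalled in the 3 comparisons. In DCM compared to CK the log2 differences were -0.40 for the Q-region heavy chain H2-Q6, -0.11 for the neonatal Fc receptor gene Fcgrt, -0.13 for the proteasome activator gene Psme1, -0.37 for the chaperone gene Calr (adjusted p = 0.00398) and -0.55 for the interferon gamma receptor gene Ifngr2 (adjusted p = 0.000548). In SPM compared to DCM they were 0.36, -0.19, -0.10, 0.23 and 0.08. Ifngr2 had 193.3 to 204.4 normalized CPM in CK, 126.6 to 144.8 in DCM, and then 134.9 to 150.0 in SPM, so that, like Psmb8, it stayed low in SPM (log2 difference from CK -0.47, adjusted p = 0.00162, and -0.49 without SPM replicate 2, adjusted p = 0.0123), with a fold under 1.5.

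Of the same list, H2-Q10, a secreted class I heavy chain known to be made by liver, was called in both SPM comparisons. It was the 1 gene of the 31 called in each. Of all genes tested, 2.7% were called higher in SPM compared to DCM and 5.08% in SPM compared to CK, so this count is near the general share. H2-Q10 had 0.637, 0.558 and 0.552 normalized CPM in CK, 1.11, 0.407 and 1.06 in DCM and 3.73, 2.18 and 1.24 in SPM. It was higher in SPM than in DCM by 1.46 (SE 0.45, adjusted p = 0.0499) and than in CK by 2.03 (SE 0.42, adjusted p = 0.00979). In SPM compared to DCM it was no longer called when SPM replicate 1, SPM replicate 2 or any 1 of the DCM libraries was left out, while without SPM replicate 2 it was still called against CK (2.09, adjusted p = 0.0350). The 7 measured genes of a list of liver markers, added after these values were seen, summed to 14.6 to 49.7 normalized CPM in CK, 27.8 to 32.2 in DCM, and 352.8, 176.6 and 31.0 in SPM replicates 1 to 3. H2-Q10 followed that order within SPM, but not within CK or DCM. In CK the liver sum was highest in replicate 2 (49.7), where H2-Q10 was 0.558 against 0.637 in replicate 1. In DCM replicates 1 to 3 the liver sums were 32.2, 30.1 and 27.8, while H2-Q10 was lowest in replicate 2. Alb, the albumin gene and the highest of the 7 by mean level, stood at 245.7, 113.0 and 0.293 in SPM replicates 1 to 3. The liver sum joins genes that moved differently: in DCM compared to CK, Ahsg was called higher (1.32) and Alb lower (-5.09). Ahsg alone held 26.1 to 30.1 of the DCM sums and 29.5 of the 31.0 in SPM replicate 3. The part of liver RNA in the H2-Q10 difference was not tested.

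Markers of the cell types that carry class I were read beside these values. The 18 measured leukocyte markers of 19 summed to 700.3 to 958.3 normalized CPM in CK, 538.9 to 668.5 in DCM, and then 678.0 to 1114 in SPM. None of the 18 was at 0 in all libraries, while Cd3e and Cd8b1, markers of T cells, were under 1 in each. All 17 that were tested had a fitted difference below 0 in DCM compared to CK, with a median of -0.93. Adgre1, Cd52, Coro1a and Laptm5, named after their values were seen, were called lower, as were 2.31% of all genes tested. The highest of the list, the macrophage genes Lyz2, Csf1r and C1qa, had 347.2 to 457.3, 107.8 to 149.7 and 75.0 to 104.9 normalized CPM in CK and 273.9 to 338.2, 84.8 to 102.5 and 56.6 to 75.2 in DCM. In SPM compared to DCM, 7 of the 17 were called higher and 0 lower (11 and 1 at an unadjusted p under 0.05, and 4 called by DESeq2), Lyz2 and C1qa among them. The shares over all genes tested were 2.7% higher and 0.89% lower. Without SPM replicate 2, edgeR called 0 of the 17, with 8 higher at an unadjusted p under 0.05, and in DCM compared to CK the count called lower was 2 without CK replicate 1 or DCM replicate 2, 8 without DCM replicate 1 and 10 without CK replicate 3. SPM replicate 1 had the highest leukocyte sum of the 9 libraries, but not the highest class I values. Macrophage markers gave 1011 of its sum of 1114. By part, the macrophage sum was highest in SPM replicate 1, the T and NK sum in CK replicate 2, and the pan-leukocyte and B-cell sums in CK replicate 1. The pan-leukocyte sum was 124.8 in CK replicate 1, 97.5 in SPM replicate 1 and, at its lowest, 40.9 in DCM replicate 2.

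The 8 endothelial markers, led by Cdh5, Pecam1 and Kdr, summed to 1896 to 2197 in CK, 1773 to 1973 in DCM, and then 1592 to 1766 in SPM. Each SPM sum lay below each DCM sum. Of the 8, 5 had a fitted difference below 0 and 3 above 0 in SPM compared to DCM, with and without SPM replicate 2, and Cldn5, named after its value was seen, was the 1 called, as lower (-1.15, adjusted p = 0.00786, and -1.16 without SPM replicate 2, adjusted p = 0.0217). The 5 measured fibroblast markers, led by Dcn, Col1a2 and Col1a1, summed to 1471 to 1581 in CK, 1177 to 1240 in DCM, and then 1412 to 1467 in SPM. This sum joins genes that moved differently: Col1a1 and Col1a2 were called lower in DCM compared to CK (-1.06 and -0.81) and in SPM compared to CK (-1.23 and -0.92, and -1.22 and -0.91 without SPM replicate 2), while Dcn had differences of -0.04 and 0.31 and was called in neither. The cardiomyocyte markers differed by -0.02 (log2 of the ratio of mean sums) between DCM and CK and by -0.20 between SPM and DCM. SPM replicate 2 lay between the other SPM libraries in each of these sums, so their SPM ranges are the same without it. The part of cell composition in the class I differences was not tested. Over all 13 measured heavy chains, the sum was 2002, 1333 and 1318 normalized CPM in CK, 1321, 1143 and 1181 in DCM and 1503, 1374 and 1264 in SPM.

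**Figure D4:**
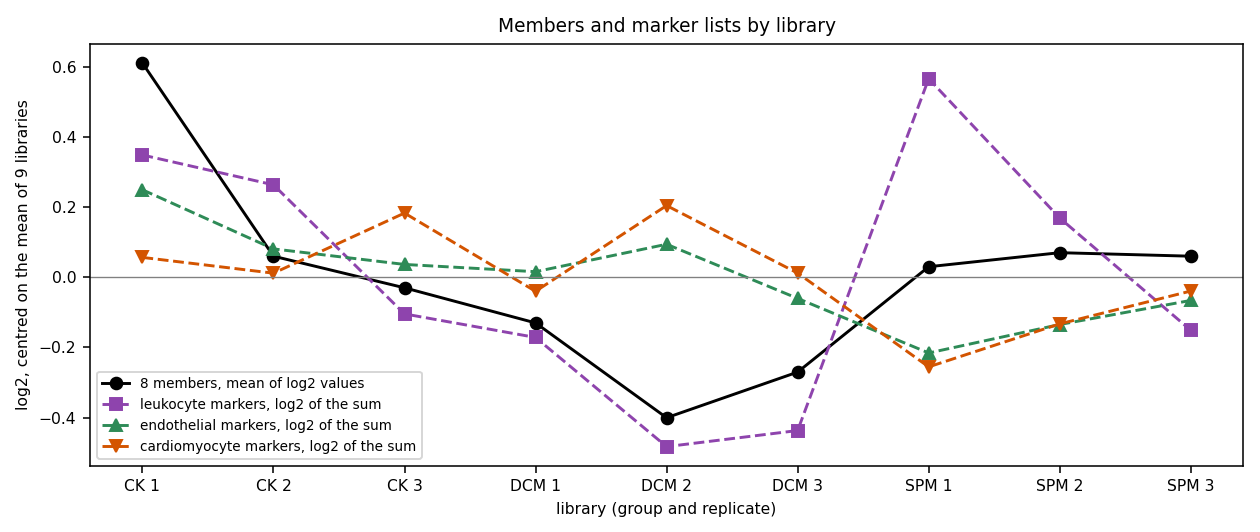
Mean centred log2 normalized CPM of the 8 class I genes and log2 of the summed normalized CPM of leukocyte, endothelial and cardiomyocyte markers in the 9 libraries, each centred on its own mean. The class I genes and the leukocyte sum were both lowest in DCM replicate 2, the class I genes were highest in CK replicate 1 and the leukocyte sum in SPM replicate 1. Most of the leukocyte sum came from the macrophage markers.

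The genes whose profile over the 9 libraries was nearest to the mean of the 8 were, of 14909 genes compared, Irf1, Stat2, Rsad2, Ubash3a and Gpsm3, with root mean square differences of 0.071, 0.080, 0.082, 0.095 and 0.1 on the log2 scale. The median over all genes was 0.33. Irf1 and Stat2 are interferon-linked transcription factors, Rsad2 is an interferon-induced antiviral gene, Gpsm3 is a regulator of G-protein signalling, and Ubash3a, a T-cell gene, was under 1 normalized CPM in each library. Irf1 had 58.7, 37.4 and 33.6 normalized CPM in CK, 37.0, 26.9 and 30.0 in DCM and 40.0, 38.0 and 37.3 in SPM. It overlapped between CK and DCM (log2 difference -0.47, SE 0.18, adjusted p = 0.127). Stat2 had 47.9, 34.1 and 35.5 in CK, 29.4, 22.4 and 27.0 in DCM and 30.5, 33.9 and 34.7 in SPM, and its groups did not overlap between CK and DCM (-0.58, SE 0.13, adjusted p = 0.0169, fold under 1.5). These likenesses rest on 9 libraries that share their depth and cell make-up and carry no test.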

How the data were processed

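RNA-seq libraries of myocardium from 3 groups of 3 were analysed. Per the labels, a TruSeq RNA kit was used; the submitters' processing notes name Bowtie 0.12.2 and the builds mm8 and mm9, and the study's methods add fastp. For the counting tool, its annotation and the use of strand no source used here gives a statement. Deposited values were raw read counts per gene and FPKM that the authors computed from count, gene length and total. The strain is C57BL/6 per the labels and C57BL/6J per the methods. Doses and ages are from the study's methods, and groups and replicate numbers from the labels. By one statement of the methods a library holds 1 mouse and by another a pool of hearts, so p-values measure only the spread between these libraries.

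Counts were tested with edgeR 4.0.16 (R 4.3.3; filterByExpr, TMM, quasi-likelihood F test) on the 6 libraries of each comparison, in place of DESeq2, which the study used. P-values were adjusted by Benjamini-Hochberg over all genes tested. Intervals use the t quantile of the fit's degrees of freedom, and SEs are the log2 fold change over the square root of F. Normalized CPM are counts scaled to library size by TMM over all 9 libraries, used to show values; FPKM served to compare genes and for ratios. The fit was tested on simulated data. Alternatives were DESeq2 1.42.0, limma 3.58.1 on log2 FPKM plus 0.1 or 1, other fold limits, filters and scalings, a GC-content offset, a replicate block and leaving out each library.

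The genes and lists were chosen with earlier results of these data known. Named were all members, called pathway genes and the highest by CK FPKM in each role, the 3 highest of each marker list, the standard proteasome subunits and the 5 genes most like the members (log2 of CPM plus 0.5). A few genes that this rule names are not reported here. Psmb10 was not analysed here, so 6 ratios were tested. Gene names came from GENCODE M21 by Ensembl ID, which left 31 IDs unnamed. Replicate numbers are not said to pair the libraries. Residual correlations between groups were -0.158 to 0.197 for the same number and -0.199 to 0.159 for others. With 3 libraries per group these ranges cannot show whether the libraries are paired.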

Additional observations from a re-analysis of the deposited data

How the results depend on the processing

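Of the fold changes of the 8 genes under the alternatives run, 316 kept their direction and side of the limits, 22 fell short of them, 6 newly passed and 16 changed sign; counts of calls stayed within 1.5 times in 107 cases, rose in 17 and fell in 29. The cause was not tested unless stated. DESeq2, another scaling, other filters and 1 fit of all 9 libraries kept the counts of called members within 1.5 times. Members called ranged from 0 to 4 in DCM compared to CK, from 0 to 3 in SPM compared to DCM and from 0 to 1 in SPM compared to CK when a library was left out, which leaves fewer samples. limma on log2 FPKM plus 1, which shrinks folds of low genes, called 0 members in SPM compared to DCM, and the GC offset 0 in SPM compared to CK. The replicate block gave 4, 2 and 1 called members in the 3 comparisons, adding Tap1 in DCM compared to CK (-0.64, adjusted p = 0.0265). The replicate numbers it uses are not said to pair the libraries. The GC offset also brought Tap1 past the limits in DCM compared to CK (-0.71, adjusted p = 0.0485) and SPM compared to DCM (0.72, adjusted p = 0.0262).

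Pathway genes called in DCM compared to CK numbered 5 with a fold limit of 1.3, 10 with no limit and 4 with limma on log2 FPKM plus 0.1, and 1 to 5 with a library left out. In SPM compared to DCM they numbered 6 and 12 with those fold limits, 0 with both limma fits and the GC offset, and 0 to 1 with a library left out. In SPM compared to CK they numbered 5 and 11 with those fold limits, 0 with limma on log2 FPKM plus 1, and 1 to 2 with a library left out.

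Differences near 0 changed sign. In SPM compared to CK, the GC offset gave 0.15 for H2-Q5, 0.01 for Tap1, 0.04 for Tap2 and 0.0 for Psmb9, and limma gave -0.04 (plus 0.1) and -0.03 (plus 1) for Nlrc5. With a library left out the range was -0.28 to 0.02 for H2-D1, -0.19 to 0.18 for H2-Q5, -0.37 to 0.25 for Tap1, -0.27 to 0.09 for Psmb9, -0.11 to 0.28 for Nlrc5 and, for the Psmb9/Psmb6 ratio, -0.12 to 0.24. Psmb8 ran from -0.06 to 0.06 in SPM compared to DCM.

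Over all genes, 625 were called in DCM compared to CK (1100 with a fold limit of 1.3, 1497 with none, 408 with limma on log2 FPKM plus 1), 521 in SPM compared to DCM (1299, 2410 and 142 in the same order, 125 with the GC offset, 56 to 791 with a library left out) and 1342 in SPM compared to CK (2532, 3989 and 683, and 771 without SPM replicate 2). Psmb8, with 155 to 354 counts per library, is the least counted of the 8 genes.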
